A study of Mus musculus with 12 samples.

Results

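Pyrimidine nucleotides and the deoxynucleotides used to build DNA are made by a short set of enzymes, and the transcripts of 9 of them were followed here: Cad, Dhodh, Umps, Ctps, Tyms, Dctpp1, Cmpk1, Rrm1 and Rrm2. They were taken by gene symbol from a table of 21671 genes, and all 9 were among the 9745 genes tested, which had at least 1 RPKM (reads per kilobase of gene, scaled to the library's total reads) in at least 3 libraries. The RNA came from FL5.12 cells, an IL-3-dependent murine B-lymphoid progenitor line that carried a constitutively expressed MycER, a MYC protein fused to an oestrogen receptor domain that 4-hydroxytamoxifen (OHT) activates. The transgene was delivered by retrovirus into a selected pool of cells rather than 1 clone, and all 4 groups carried it. Each group held 3 libraries: untreated cells, cells given 100 nM OHT for 72 h (OHT), a group that received IACS-010759, which blocks mitochondrial complex I, at 135 nM over 24 h (IACS), and a group with both (OHT_IACS), in which 48 h of OHT priming preceded 24 h with the 2 compounds together. No vehicle-treated group was described, so compound and solvent cannot be told apart, and the methods call the replicates biological without saying whether they were separate cultures, so the p-values measure the spread between these libraries.

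CAD carries out the first steps of pyrimidine synthesis, from glutamine, bicarbonate and aspartate to dihydroorotate. DHODH, in the inner mitochondrial membrane, oxidises dihydroorotate to orotate and passes the electrons to ubiquinone, the carrier that complex I also reduces, and UMPS turns orotate into UMP. CTP synthase makes CTP from UTP, CMPK1 phosphorylates CMP, UMP and dCMP, ribonucleotide reductase (the RRM1 and RRM2 subunits) turns ribonucleoside diphosphates into deoxyribonucleoside diphosphates, thymidylate synthase (TYMS) methylates dUMP to dTMP, and DCTPP1 hydrolyses dCTP and modified dCTP.

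The members lie on chromosomes 4 (Ctps, Cmpk1), 5 (Cad, Tyms), 7 (Dctpp1, Rrm1), 8 (Dhodh), 12 (Rrm2) and 16 (Umps) of the GRCm38 mouse genome. In the GENCODE annotation of that build no exon of 8 of them overlapped an exon of another gene, and Umps shared 213 bases with the antisense gene Gm15829. RefSeq promoter windows were held for 8 of the 9, all but Dhodh, and 5 motifs were sought on both strands in the 250 bases before each start. The 4 windows printed are those of the CTP synthase and thymidylate synthase genes, which differed from untreated cells in opposite directions under OHT_IACS, and of both reductase subunits. Capitals mark the motifs found; coordinates are GRCm38.p6, chr4:120570277-120570526 (minus strand) for Ctps, chr5:30073626-30073875 (minus strand) for Tyms, chr7:102441445-102441694 (plus strand) for Rrm1 and chr12:24708004-24708253 (plus strand) for Rrm2.
Ctps: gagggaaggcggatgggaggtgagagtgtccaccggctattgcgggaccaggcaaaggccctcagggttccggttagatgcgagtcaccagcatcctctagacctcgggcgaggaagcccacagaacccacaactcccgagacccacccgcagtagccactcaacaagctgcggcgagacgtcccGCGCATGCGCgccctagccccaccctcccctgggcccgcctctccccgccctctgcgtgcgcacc
Tyms: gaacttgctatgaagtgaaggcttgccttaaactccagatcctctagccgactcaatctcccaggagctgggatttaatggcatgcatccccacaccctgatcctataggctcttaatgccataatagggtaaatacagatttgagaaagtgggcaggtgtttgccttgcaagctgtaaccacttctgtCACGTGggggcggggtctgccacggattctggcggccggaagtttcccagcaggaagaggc
Rrm1: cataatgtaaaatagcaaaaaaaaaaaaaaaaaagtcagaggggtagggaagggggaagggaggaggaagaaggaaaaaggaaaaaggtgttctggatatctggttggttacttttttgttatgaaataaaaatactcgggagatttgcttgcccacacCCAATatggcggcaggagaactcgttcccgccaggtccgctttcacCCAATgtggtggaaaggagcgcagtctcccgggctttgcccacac
Rrm2: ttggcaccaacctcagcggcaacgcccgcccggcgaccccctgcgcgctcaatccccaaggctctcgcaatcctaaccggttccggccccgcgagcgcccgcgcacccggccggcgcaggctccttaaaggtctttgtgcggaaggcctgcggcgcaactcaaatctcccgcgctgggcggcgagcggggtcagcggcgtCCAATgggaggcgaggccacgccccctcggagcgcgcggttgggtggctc
The Ctps window held GCATGCGC and its reverse complement GCGCATGC, part of the site of the nuclear respiratory factor NRF1, as 2 overlapping matches that began 63 and 65 bases before the start. One or the other was present in 2.26% of the 32851 windows of that length. The Tyms window held the E-box CACGTG, the core bound by MYC and other factors of its class, 61 bases before the start, as did 6.02% of windows. CCAAT (or ATTGG on the other strand) began 91 and 45 bases before the Rrm1 start and 50 bases before the Rrm2 start. It also occurred in the Dctpp1 window and in 33.8% of all windows. Neither E2F motif searched (TTTCCCGC or TTTGGCGC, 1.3% of windows on either strand) nor the composite ATF4 motif TGATGCAA (0.791% of windows on either strand) was in any member's window, and the windows of Cad, Cmpk1 and Umps held none of the 5 motifs. A match is a run of letters and not a measured binding site.

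The libraries held 10376530 to 14550158 reads in the totals recovered from the RPKM steps. OHT replicates 1 and 3 had the smallest totals, 0.776 and 0.805 of that of untreated replicate 1, and OHT replicate 2 had 1.04 of it. Within conditions the reads of densely covered genes grew less than in proportion to the total: the median slope of log2 reads on log2 total was 1.39 for genes under 0.1 reads per base and 0.75 for the 867 genes of 0.4 to 0.7 reads per base, the range that holds 7 of the 9 members. The slopes of these 7 varied: 0.67 for Dctpp1 and Cmpk1, 0.68 for Rrm1, 0.74 for Ctps, 0.93 for Umps, 0.94 for Cad and 0.95 for Rrm2. In the OHT against untreated comparison, 25.6% of those 867 genes were called higher and 7.73% lower, against 18.2% in each direction over all genes. Endogenous Myc, whose row may also take reads of the transgene, separated the groups as labelled: it lay at 35.8 to 37.2 RPKM untreated, 19.3 to 22.5 in OHT, 46.6 to 47.0 in IACS and 28.4 to 31.6 in OHT_IACS. Of the labelled cell type, 8 of 10 B-lineage markers stayed under 1 RPKM in every library, with Pax5, Il7r, Rag1 and Dntt at 0, while Cd79a lay at 0.511 to 1.59 RPKM and Cd79b at 1.05 to 3.64. The pan-leukocyte gene Ptprc (mean 17.0, highest 19.3) and the IL-3 receptor chain Csf2rb (39.8 to 48.5) were present throughout. Of the markers of other lineages, 3 of 4 T cell, 2 of 5 myeloid, 1 of 3 erythroid and 3 of 3 fibroblast genes stayed under 1 RPKM, but 2 exceeded every B-lineage marker and moved with treatment. Mpo, the myeloid peroxidase, lay at 8.65 to 13.7 RPKM and was 0.783-fold with OHT (adjusted p = 0.0086) and 0.701-fold in OHT_IACS against untreated (adjusted p = 0.00066). Klf1, an erythroid transcription factor, lay at 4.92 to 13.7 RPKM and was 0.708-fold with OHT (adjusted p = 2.6e-05), 0.516-fold with IACS (adjusted p = 2.2e-07) and 0.383-fold in OHT_IACS against untreated (adjusted p = 2.9e-09). Their part in the members' values was not tested. Bulk RNA cannot tell fewer cells of a type from less RNA per cell.

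Across the comparisons the members changed little in size, and in none of them were all 9 called in the same direction. With OHT, 2 of 9 were called higher (Ctps and Rrm2) and 0 lower, where 18.2% of all tested genes were called higher and 18.2% lower (limma on log2 RPKM, Benjamini-Hochberg adjusted p under 0.05). With IACS alone, 0 were called higher and 1 lower (Rrm2), where the background was 8.15% higher and 7.74% lower. When IACS was added to primed cells (OHT_IACS against OHT), 0 were higher and 2 lower (Tyms and Rrm2), against 11.9% and 11.8% of all genes. OHT_IACS against IACS gave 2 higher (Cad and Ctps) and 1 lower (Tyms), with 12.3% higher and 14.2% lower over all genes. The counts were largest for OHT_IACS against untreated, with 2 higher (Cad and Ctps) and 5 lower (Dhodh, Umps, Tyms, Dctpp1 and Rrm2), where 18.5% of genes were called higher and 20.9% lower. The members' median log2 difference was 0.14, -0.08, -0.16, -0.06 and -0.17 in these comparisons, in that order, beside all-gene medians of 0.013, 0.004, -0.014, -0.003 and 0.001. In the same order, the 867 genes of 0.4 to 0.7 reads per base, where most members lie, had medians of 0.106, 0.029, -0.056, 0.025 and 0.059. With OHT the members' median was thus close to that of genes of like coverage. At an unadjusted limma p under 0.05, and likewise by limma voom on the recovered reads, the counts given as 0 stayed at 0. Over all 9745 genes, 2210 were lower with OHT at that unadjusted p and 1977 by voom. With IACS 1467 and 983 were higher, and in OHT_IACS against OHT 1729 and 1317. In OHT_IACS against OHT, however, 7 members were lower at that unadjusted threshold, where 1892 of all 9745 genes were. There 8 of 9 members lay below 0, as did 5200 of all genes. Quantile and cyclic loess normalization each called Umps lower with OHT (-0.13, adjusted p = 0.010, and -0.14, adjusted p = 0.0069). The comparisons share libraries, so they are not independent of each other.

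OHT replicate 2 weighed on these counts. Its median over the members, relative to the untreated mean, was -0.01 on the log2 scale, while OHT replicates 1 and 3, the small libraries, stood at 0.18 and 0.17. Without it, 4 members were called higher with OHT and 7 lower in OHT_IACS against OHT. Over all 9728 genes tested without it, 2246 and 1494 were so called, against 1769 and 1146 of 9745 in the main fit. Without OHT replicate 3 the members' counts were 1 and 1, where 1251 and 766 of 9728 genes were called. Without untreated replicate 2 or 3, 1 member was called higher with OHT, where 1286 of 9725 and 1254 of 9720 genes were.

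**Figure D1:**
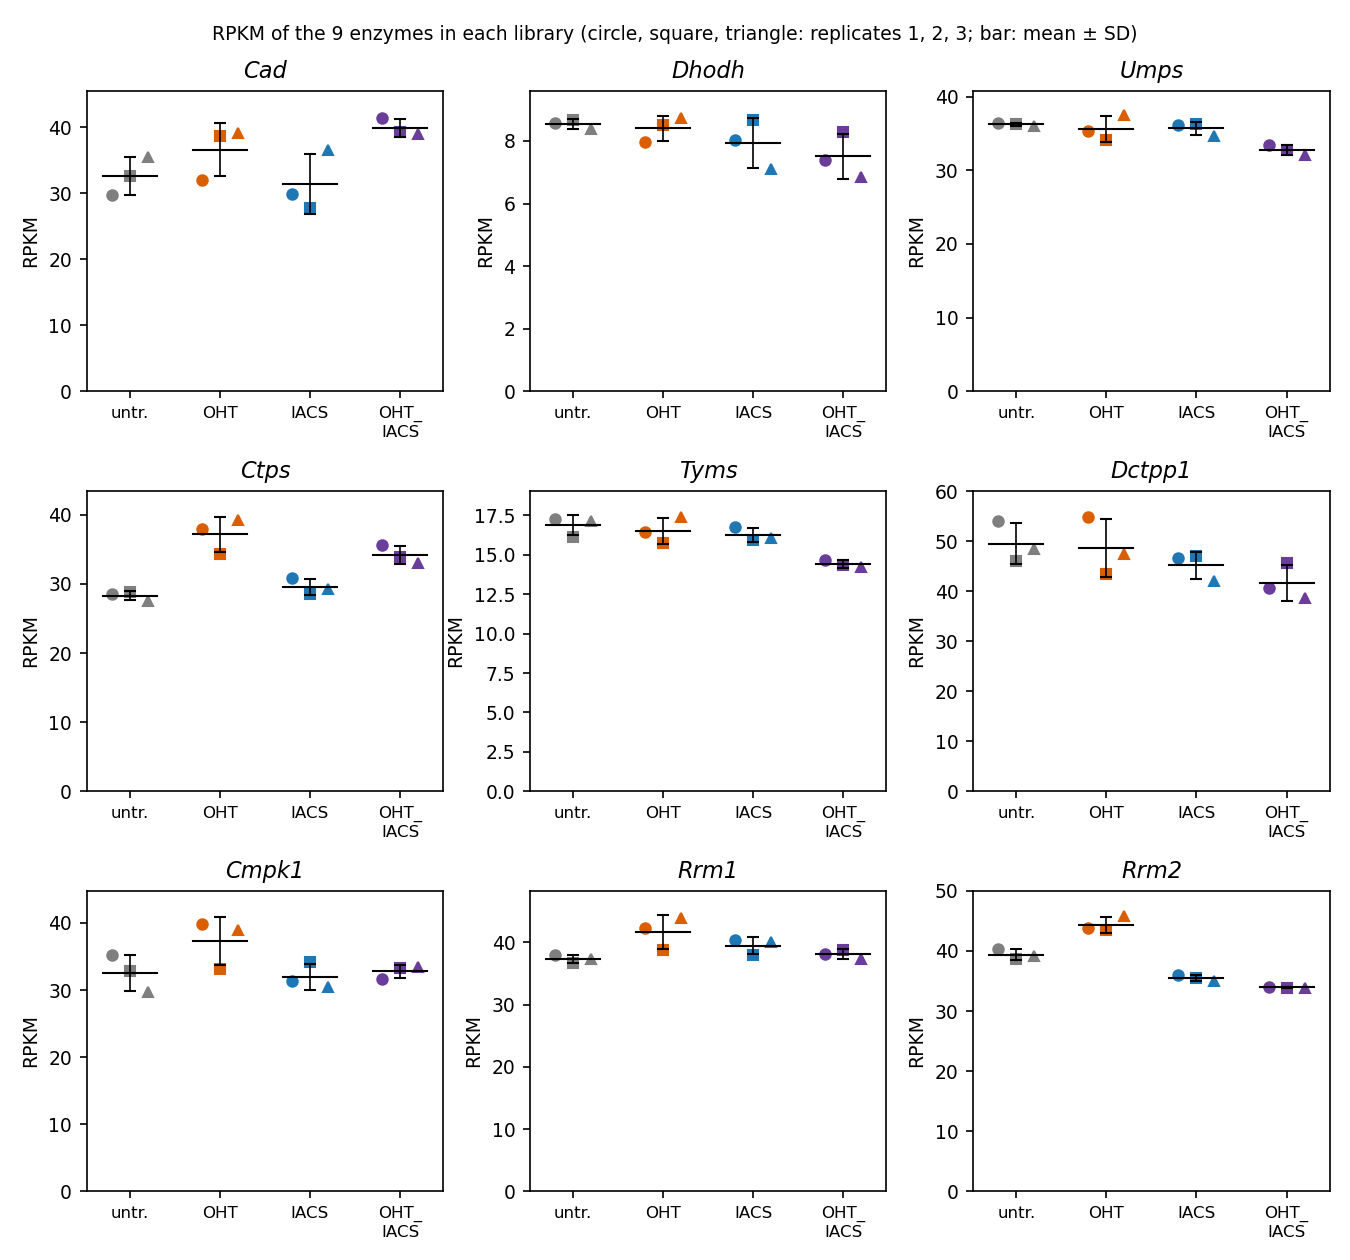
RPKM as deposited (vertical axes, from 0) of each of the 9 enzymes in the 3 libraries of each condition (horizontal axes); points are libraries, and the horizontal line and whiskers are the mean ± SD. The 3 OHT libraries of Ctps (34.3 to 39.2) and of Rrm2 (43.4 to 45.7) sit above the untreated ones, the Rrm2 points under IACS and OHT_IACS sit below them, and the 3 OHT_IACS points of Tyms (14.2 to 14.7) are its lowest.

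In untreated cells the levels per length ran from Dctpp1 at 49.5 ± 4.09 RPKM (mean ± SD, n = 3) through Rrm2 at 39.4 ± 0.912, Rrm1 at 37.3 ± 0.656, Umps at 36.3 ± 0.193, Cad at 32.6 ± 2.83, Cmpk1 at 32.5 ± 2.74 and Ctps at 28.3 ± 0.672 to Tyms at 16.9 ± 0.633 and Dhodh at 8.54 ± 0.153. Cad and Cmpk1 did not differ beyond their spread. Dhodh was thus the least abundant, on 332 to 531 reads a library, and Cad carried the most reads (2393 to 3896) because of its length of 7219 bases. Since the reads of dense genes grew less than in proportion, the order of levels is a description.

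Of the UMP synthesis genes, Cad was called higher and Dhodh and Umps lower in OHT_IACS against untreated. Cad stood at 29.8, 32.6 and 35.5 RPKM in the untreated libraries, 32.0, 38.7 and 39.1 in OHT, 29.8, 27.8 and 36.5 in IACS, and 41.4, 39.3 and 39.0 in OHT_IACS. Its combined-treatment libraries lay above every other library except for OHT replicate 3, at 39.1, which fell among them. The rise over IACS was 1.28-fold (log2 0.36 ± 0.10 SE, adjusted p = 0.018 by limma), and the rise over untreated cells was 1.21-fold (log2 0.27 ± 0.10, adjusted p = 0.048). The first call was lost without IACS replicate 1 (adjusted p = 0.074), IACS replicate 2 (0.087) or OHT_IACS replicate 1 (0.066). The second was lost in 5 of 13 alternative settings and without untreated replicate 1 or 2, OHT replicate 3, IACS replicate 1 or any of the 3 OHT_IACS libraries (adjusted p up to 0.19). With OHT alone the Cad difference was 0.14 (95% interval -0.08 to 0.36), which did not pass the test.

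Dhodh, the ubiquinone-linked step, stood at 8.57, 8.68 and 8.37 RPKM untreated, 7.97, 8.499 and 8.74 in OHT, 8.03, 8.66 and 7.09 in IACS, and 7.38, 8.28 and 6.85 in OHT_IACS. The groups treated singly overlapped the untreated libraries, and the 3 OHT_IACS libraries lay below them. It fell to 0.865-fold of untreated in OHT_IACS (log2 -0.21 ± 0.07, adjusted p = 0.025). This call was lost on RPKM as deposited (adjusted p = 0.083), with the library total as a covariate (0.16), and without untreated replicate 1 or 2 or OHT_IACS replicate 1 or 3 (0.063 to 0.12). With IACS alone the difference was -0.14 (interval -0.28 to 0.01, adjusted p = 0.19) and did not pass.

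Umps stood at 36.4, 36.3 and 36.0 RPKM untreated, 35.3, 34.1 and 37.5 in OHT, 36.2, 36.2 and 34.7 in IACS, and 33.4, 32.7 and 32.1 in OHT_IACS. As deposited, the OHT_IACS libraries lay below all 9 others. They were 0.89-fold of untreated (log2 -0.17 ± 0.05, adjusted p = 0.012), a call that held in all 13 alternative settings and with any 1 of the 12 libraries left out. Against OHT (-0.12, adjusted p = 0.080) and against IACS (-0.12, adjusted p = 0.081) the difference did not pass. Umps and Dhodh therefore differed from Cad in direction under the combined treatment, in their own values against the same untreated libraries.

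Ctps, the CTP synthase gene whose window holds the NRF1-type letters, gave the firmest response to OHT. It stood at 28.6, 28.8 and 27.5 RPKM untreated, 37.9, 34.3 and 39.2 in OHT, 30.8, 28.6 and 29.3 in IACS, and 35.6, 33.9 and 33.0 in OHT_IACS. Every library that had received OHT lay above every library that had not. OHT raised it 1.29-fold (log2 0.37 ± 0.06, interval 0.24 to 0.50, adjusted p = 0.00042), with log2 differences of 0.26 to 0.41 over the 13 alternative settings and every one called. In OHT_IACS it was 1.16-fold above IACS (adjusted p = 0.019) and 1.19-fold above untreated (adjusted p = 0.0053). The former was lost without IACS replicate 2 (0.083) or OHT_IACS replicate 1 (0.079). IACS alone left a difference of 0.04 (interval -0.10 to 0.17). Its paralog Ctps2 was less abundant, at 3.59 ± 0.202 RPKM untreated and 3.17 ± 0.225 in OHT, and was higher in OHT_IACS than in OHT by 0.30 (adjusted p = 0.046), a call lost in 7 of 12 alternative settings and without any 1 of 9 libraries (up to 0.12).

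Tyms, the thymidylate synthase gene with the E-box, stood at 17.3, 16.1 and 17.2 RPKM untreated, 16.4, 15.7 and 17.4 in OHT, 16.8, 15.9 and 16.0 in IACS, and 14.7, 14.3 and 14.2 in OHT_IACS. The 3 OHT_IACS libraries were below all 9 others, among which the groups overlapped. Tyms fell to 0.844-fold of untreated (log2 -0.25 ± 0.05, adjusted p = 0.0016), and that call held in every alternative and with any library left out. It was 0.875-fold of OHT (adjusted p = 0.014) and 0.892-fold of IACS (adjusted p = 0.024). The first of these was lost without OHT replicate 3 (0.056). The second was lost without IACS replicate 1 or 3 or OHT_IACS replicate 2 or 3 (0.060 to 0.080). Neither compound alone gave a difference that passed (OHT -0.05, interval -0.16 to 0.05, and IACS -0.08, interval -0.19 to 0.03), and the interaction was -0.11 (adjusted p = 0.53).

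Dctpp1, which removes surplus and damaged dCTP, was called in 1 of the 5 comparisons. It stood at 54.0, 46.1 and 48.4 RPKM untreated, 54.8, 43.5 and 47.5 in OHT, 46.5, 47.0 and 42.0 in IACS, and 40.6, 45.6 and 38.7 in OHT_IACS. The OHT libraries reached from below to above the untreated ones, and the OHT_IACS libraries lay just below the untreated ones. The fall in OHT_IACS against untreated was to 0.829-fold (log2 -0.27 ± 0.09, adjusted p = 0.034). It was lost with no expression filter (0.065), with no mean-variance trend (0.053), and without untreated replicate 1 or 3 or OHT_IACS replicate 1 or 3 (0.057 to 0.14). Its length of 631 bases gave it 288 to 456 reads a library.

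Cmpk1, the UMP/CMP kinase gene, passed the test in none of the 5 comparisons. It stood at 35.2, 32.8 and 29.7 RPKM untreated, 39.8, 33.2 and 39.0 in OHT, 31.4, 34.2 and 30.4 in IACS, and 31.6, 33.3 and 33.4 in OHT_IACS. OHT replicates 1 and 3 were above every untreated library and OHT replicate 2 fell among them. The OHT difference was 0.18 (interval 0.00 to 0.35, adjusted p = 0.11) and became 0.27 (adjusted p = 0.010) without OHT replicate 2.

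Of the 2 reductase subunits, Rrm2 was called lower with IACS in both primed and unprimed cells and Rrm1 in neither; the difference between the subunits was not tested. Rrm2, the small subunit that carries the radical-generating iron centre and is made in S phase, stood at 40.4, 38.6 and 39.1 RPKM untreated, 43.8, 43.4 and 45.7 in OHT, 36.0, 35.6 and 35.0 in IACS, and 34.0, 33.9 and 33.8 in OHT_IACS. None of the 4 groups overlapped another. IACS lowered Rrm2 in primed cells to 0.767-fold (OHT_IACS against OHT, log2 -0.38 ± 0.05, interval -0.48 to -0.29, adjusted p = 6.9e-05), the largest difference of any member in any of the 5 comparisons. It held in all 13 alternative settings (log2 -0.40 to -0.33) and with any library left out. In unprimed cells IACS lowered it to 0.885-fold (log2 -0.18 ± 0.05, adjusted p = 0.017). That call held in all 13 settings but was lost without untreated replicate 1 (0.082), IACS replicate 1 (0.060) or IACS replicate 2 (0.057). OHT alone raised it 1.11-fold (log2 0.15 ± 0.05, adjusted p = 0.020). Cyclic loess normalization, which allows for expression level, left 0.05 (adjusted p = 0.25), quantile normalization 0.06 (0.21), the library total as a covariate 0.10 (0.069) and the fit on only these 2 groups 0.15 (0.087). It was lost also without untreated replicate 2 or 3 or OHT replicate 3 (0.069 to 0.075). In OHT_IACS against untreated it was 0.85-fold (adjusted p = 0.0011) and against IACS 0.96-fold (-0.06, interval -0.16 to 0.04, adjusted p = 0.36).

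Rrm1, the large catalytic subunit, stood at 38.0, 36.6 and 37.2 RPKM untreated, 42.3, 38.7 and 44.0 in OHT, 40.4, 37.9 and 40.1 in IACS, and 38.1, 38.8 and 37.4 in OHT_IACS. OHT replicates 1 and 3 were the highest, and the remaining libraries overlapped across the 4 groups. No comparison passed: the difference was 0.14 with OHT (interval 0.01 to 0.26, adjusted p = 0.084), 0.05 with IACS (adjusted p = 0.58) and -0.13 in OHT_IACS against OHT (adjusted p = 0.13). The OHT difference was called on RPKM as deposited (0.16, adjusted p = 0.030), with weights per library (0.18, adjusted p = 0.00098) and without OHT replicate 2 (0.20, adjusted p = 0.0053). Cyclic loess normalization (0.04, adjusted p = 0.33) and the library-total covariate (0.01, adjusted p = 0.86) lowered it, as the plot of fold changes under 4 ways of scaling shows. In OHT_IACS against OHT, Rrm1 was called lower with the covariate (-0.11, adjusted p = 0.0095), with weights (-0.17, adjusted p = 0.0041) and without OHT replicate 2 (-0.19, adjusted p = 0.012). The third subunit gene, Rrm2b, a p53-regulated small subunit used outside S phase, was far less abundant (1.68 ± 0.143 RPKM untreated and 2.34 ± 0.367 in OHT). It rose with OHT by 0.42 (adjusted p = 0.011), a call lost without untreated replicate 3 (0.052).

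**Figure D2:**
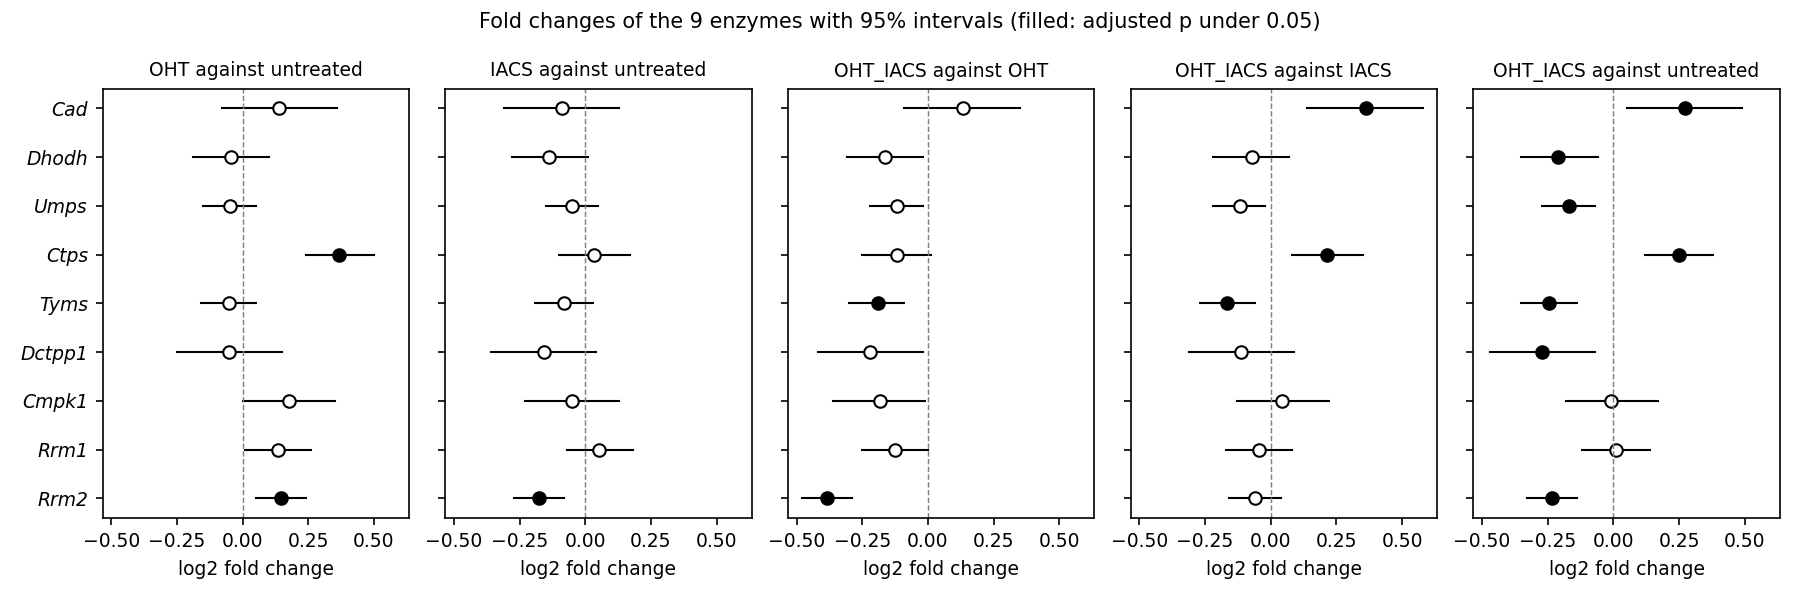
Log2 fold change (horizontal axes) of each enzyme (rows) in 5 comparisons, from limma over all 12 libraries; lines are 95% intervals and filled points passed an adjusted p of 0.05. Rrm2 in OHT_IACS against OHT (-0.38) and Ctps in OHT against untreated (0.37) lie farthest from 0, and the OHT_IACS against untreated panel has the most filled points, 7 of 9.

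The interaction, which asks whether the OHT response differed with and without IACS, was called for 0 of 9 members in either direction, where 0.144% of genes were called higher and 0% lower. Its median was -0.11 over the members, -0.077 over the 867 genes of 0.4 to 0.7 reads per base and -0.015 over all genes. It lay below 0 for 8 of 9 members and for 5213 of all 9745 genes. At an unadjusted p under 0.05, 2 members were lower, Rrm2 (-0.21 ± 0.06, adjusted p = 0.21) and Rrm1 (-0.18 ± 0.08, adjusted p = 0.39), and voom called 0. Over all genes, the count of 0 lower compares with 578 lower at an unadjusted p under 0.05 and 1 by voom. With weights per library both were called (Rrm1 -0.22, adjusted p = 0.029, and Rrm2 -0.22, adjusted p = 0.014). That setting called 533 of all 9745 genes lower and 533 higher, against 0 and 14 in the main fit.

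**Figure D3:**
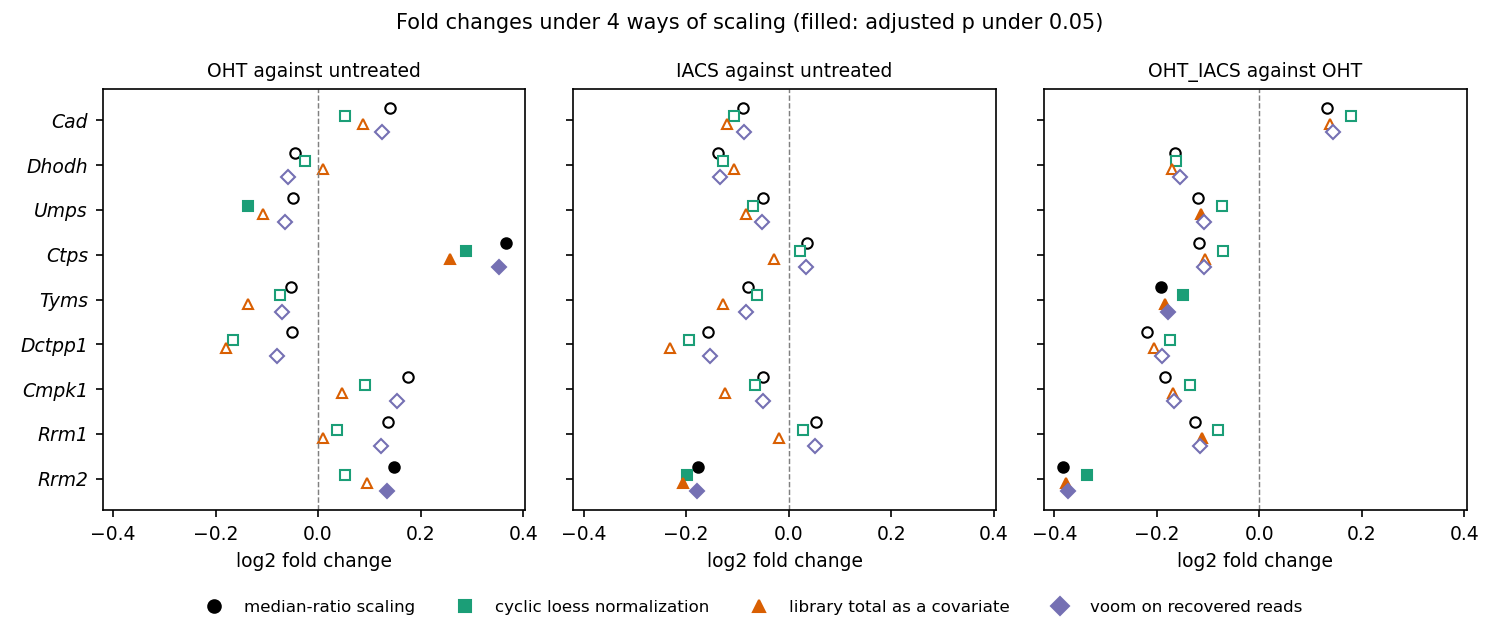
Log2 fold change (horizontal axes) of each enzyme (rows) in 3 comparisons under median-ratio scaling, cyclic loess normalization, the log2 library total as a covariate and voom on recovered reads; filled symbols passed an adjusted p of 0.05. With OHT most members shift toward lower values under loess and the covariate, so Ctps is the only one filled under all 4 and Rrm2 is filled under 2, while Rrm2 with IACS is filled under all 4 both with and without OHT.

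Beyond the 9, the lists of nucleotide kinases, reductase partners, folate, salvage, breakdown, transport and sanitation genes held 58 further genes, of which 48 were tested. With OHT 9 of the 48 were called higher and 8 lower, beside 18.2% of all genes in each direction. With IACS 3 were higher and 5 lower (8.15% and 7.74% over all genes), and in OHT_IACS against OHT 3 and 9 (11.9% and 11.8%). In OHT_IACS against IACS they were 5 and 6 (12.3% and 14.2%), and in OHT_IACS against untreated 11 and 12 (18.5% and 20.9%). In that order, 10, 3, 4, 8 and 15 of those calls held in every alternative and with any library left out. Their median log2 differences were 0.06, -0.03, -0.05, 0.02 and -0.04. Larger changes than in the 9 members were found among the transport and salvage genes.

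Slc25a33, a mitochondrial carrier of pyrimidine nucleotides, stood at 8.36, 7.65 and 7.72 RPKM untreated, 14.99, 14.7 and 17.0 in OHT, 9.98, 9.90 and 9.28 in IACS, and 15.9, 15.3 and 16.7 in OHT_IACS. The libraries with OHT were all above those without, and the IACS libraries all above the untreated ones. It rose by 0.94 on the log2 scale with OHT (adjusted p = 1.6e-07), by 0.27 with IACS (adjusted p = 0.011) and by 0.72 in OHT_IACS against IACS (adjusted p = 2.6e-06). All of these held in every alternative and with any library left out.

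Salvage enzymes, which rebuild nucleotides from free nucleosides, were called in both directions. Cda, cytidine deaminase, stood at 7.86, 6.88 and 8.83 RPKM untreated, 3.57, 3.54 and 3.44 in OHT, 6.43, 8.19 and 4.66 in IACS, and 3.11, 2.83 and 2.31 in OHT_IACS, on 22 to 102 reads a library. It fell with OHT by 1.15 (adjusted p = 8.1e-05) and in OHT_IACS against IACS by 1.16 (adjusted p = 0.00012). Uckl1, a uridine-cytidine kinase-like gene, stood at 7.23, 7.52 and 8.22 untreated, 4.48, 4.999 and 4.37 in OHT, 10.6, 11.7 and 10.9 in IACS, and 7.41, 8.37 and 7.58 in OHT_IACS. It fell with OHT by 0.74 (adjusted p = 3.3e-06), rose with IACS by 0.50 (adjusted p = 0.00031) and rose in OHT_IACS against OHT by 0.74 (adjusted p = 8.5e-06), so that its combined-treatment level overlapped the untreated one. Tk1, the S-phase thymidine kinase, stood at 46.2, 45.4 and 47.3 untreated, 39.8, 36.7 and 36.6 in OHT, 44.0, 43.2 and 40.6 in IACS, and 31.6, 32.2 and 28.9 in OHT_IACS. It fell with OHT by 0.32 (adjusted p = 0.00084), in OHT_IACS against OHT by 0.29 (adjusted p = 0.0037) and in OHT_IACS against IACS by 0.45 (adjusted p = 8.1e-05). These calls of Cda, Uckl1 and Tk1 held in every alternative and with any library left out. Of the other salvage kinases, Uck1 fell with OHT by 0.29 (adjusted p = 0.0015) and Uck2 rose by 0.34 (adjusted p = 0.0063). Dck, deoxycytidine kinase, fell with IACS by 0.28 (adjusted p = 0.015, 0.054 without IACS replicate 2) and in OHT_IACS against OHT by 0.38 (adjusted p = 0.0017).

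**Figure D4:**
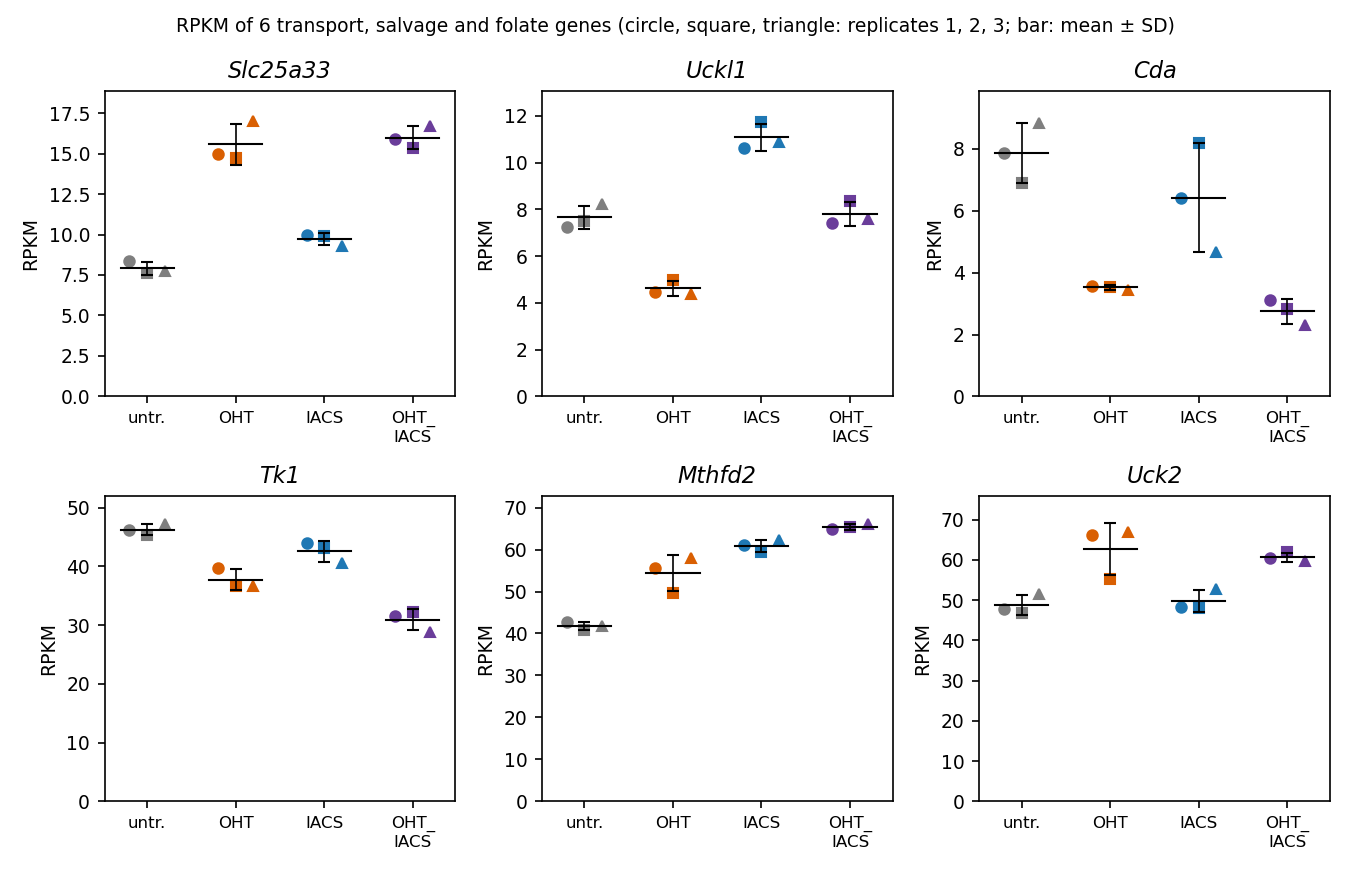
RPKM as deposited (vertical axes, from 0) of 6 transport, salvage and folate genes in the 3 libraries of each condition (horizontal axes); lines and whiskers are the mean ± SD. Slc25a33 lies at 14.7 to 17.0 RPKM in both groups given OHT and under 10 in the others, Uckl1 is lowest in OHT and highest in IACS, and Tk1 and Cda are lowest in OHT_IACS.

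In the folate cycle that serves thymidylate synthase, Mthfd2, the mitochondrial methylene-tetrahydrofolate dehydrogenase, rose with each compound: its mean was 41.8 ± 1.01 RPKM untreated, 54.4 ± 4.29 in OHT, 60.9 ± 1.48 in IACS and 65.4 ± 0.708 in OHT_IACS. The log2 differences were 0.36 with OHT (adjusted p = 0.0011), 0.52 with IACS (adjusted p = 0.00023) and 0.27 in OHT_IACS against OHT (adjusted p = 0.011, and 0.054 in the fit on only those groups).

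Among the electron donors of the reductase, Gsr (glutathione reductase) and Txn2 (mitochondrial thioredoxin) rose with OHT by 0.44 (adjusted p = 0.00035) and 0.31 (adjusted p = 0.00021). Txn1 rose by 0.32 (adjusted p = 0.035) and Glrx fell by 0.32 (adjusted p = 0.013), and with the library total as a covariate neither passed (0.85 and 0.072). Both calls were lost without OHT replicate 3 (0.13 and 0.058), that of Txn1 also without untreated replicate 2 or 3 or OHT replicate 1, and that of Glrx without untreated replicate 1. Of the sanitation and control genes, Itpa and Nudt1, which clear inosine and oxidised purine nucleotides, fell with IACS by 0.33 (adjusted p = 0.017) and 0.24 (adjusted p = 0.047). Both also fell in OHT_IACS against OHT, by 0.32 (adjusted p = 0.015) and 0.26 (adjusted p = 0.024). The Itpa call with IACS was lost without untreated replicate 1 (0.067), IACS replicate 2 (0.059) or IACS replicate 3 (0.055), and that of Nudt1 was lost without any 1 of 8 libraries (up to 0.18). In OHT_IACS against OHT the Itpa call was lost without OHT_IACS replicate 1 (0.059), and that of Nudt1 without OHT replicate 1 or OHT_IACS replicate 2 or 3 (0.065 to 0.084). Nt5c2, a cytosolic nucleotidase of the breakdown list, fell with OHT by 0.42 (adjusted p = 0.00061).

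The other calls of these lists were smaller or less steady. Nme3, a nucleoside diphosphate kinase, fell with OHT by 0.41 (adjusted p = 0.023), with IACS by 0.50 (0.017) and in OHT_IACS against OHT by 0.45 (0.020), each lost without 2 or 3 of the libraries compared, taken singly. With OHT, Mthfd1 and Dctd rose by 0.16 each and Tk2 fell by 0.55, and all of these were lost with the library total as a covariate (0.13, 0.15 and 0.20) and without untreated replicate 1 or 2 or OHT replicate 3. In OHT_IACS against OHT, Nme6 fell by 0.26, a call lost without OHT replicate 1 or 3 or OHT_IACS replicate 1 or 3 (0.056 to 0.087). In OHT_IACS against IACS, Gsr rose by 0.37, Txn2 by 0.33, Uck2 by 0.29 and Dctd by 0.18, while Nt5c2 fell by 0.32, Uck1 by 0.29 and Glrx by 0.29. Of these 7, the calls of Uck2, Dctd and Glrx were lost without IACS replicate 2 or OHT_IACS replicate 1 (0.053 to 0.13).

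DHODH shares ubiquinone with other dehydrogenases, of which 9 were listed and 7 tested. Gpd2, the mitochondrial glycerol phosphate dehydrogenase, fell with IACS by 0.29 (adjusted p = 0.0050), from 8.03 ± 0.191 to 6.69 ± 0.271 RPKM, in every alternative and with any library left out. Sdha rose with IACS by 0.16 (adjusted p = 0.039), a call lost without any 1 of 9 libraries (up to 0.14). Of the 7, 1 was thus called higher and 1 lower with IACS, beside 8.15% and 7.74% of all genes. With OHT, 1 of the 7 was called, Prodh (proline dehydrogenase), which fell by 0.26 (adjusted p = 0.0031). Over all genes 18.2% were called lower with OHT and 18.2% higher.

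Genes of S phase, when Rrm2, Tyms and Tk1 are used, were set beside the members. Of 21 replication genes tested, 3 were called with OHT, all higher, beside 18.2% of all genes and 25.6% of those of 0.4 to 0.7 reads per base. With IACS 5 were called, all lower (7.74% over all genes), and in OHT_IACS against OHT 9, all lower (11.8%). Their median log2 differences were 0.08, -0.13 and -0.18. Prim1, Ccne1 and Rfc4 were those raised with OHT (0.20, 0.16 and 0.20), and with the library total as a covariate none of them passed (0.058, 0.13 and 0.34). Ccne1, which encodes cyclin E1, fell with IACS by 0.28 (adjusted p = 0.0019) and in OHT_IACS against OHT by 0.37 (adjusted p = 0.00022). The other IACS calls with the smallest p were Gins2 (-0.42, adjusted p = 0.0034), Cdc6 (-0.28, adjusted p = 0.0058) and Ccne2 (-0.43, adjusted p = 0.0068), and in OHT_IACS against OHT they were Prim1 (-0.32), Ccne2 (-0.51) and Cdc6 (-0.26). Of 10 G2 and mitosis genes, 4 were called higher with OHT (Plk1, Aurka, Bub1 and Cdk1, by 0.15 to 0.18, none past the threshold with the library total as a covariate) and 2 lower in OHT_IACS against OHT (Aurka -0.24 and Bub1 -0.17), beside the same shares over all genes and with medians of 0.14 and -0.07. Relative to the untreated mean, the S-phase median was -0.13, -0.15 and -0.08 in the IACS libraries and -0.05, -0.10 and -0.09 in the OHT_IACS libraries. The part of cell-cycle distribution in the Rrm2 and Tyms values was not tested.

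Over the 12 libraries, the genes whose log2 level followed each member most closely were Sf1 and Pfas for Cad (Pearson r = 0.96 and 0.94), Gtpbp3 and Dpcd for Dhodh (0.95 and 0.94), Ankrd49 for Umps (0.95), Wdr36 and Ruvbl1 for Ctps (0.98 and 0.98) and Surf4 for Tyms (0.95). For the rest they were Tmem208 and Asf1b for Dctpp1 (0.95 and 0.94), Cops2 and Otud6b for Cmpk1 (0.96 and 0.94), Mt1 and Abce1 for Rrm1 (0.96 and 0.95), and Acsl4 and Impad1 for Rrm2 (0.97 and 0.96). No member was among the nearest genes of another, but Umps and Tyms followed each other almost as closely (r = 0.94). The other pairs of members ran from -0.55 (Cad with Umps) to 0.74 (Tyms with Dctpp1). The points share 4 conditions and the library totals, so these values are a description.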

How the data were processed

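RNA of 12 libraries (TruSeq stranded total RNA, ribosomal RNA removed) was measured by sequencing. The authors deposited RPKM per gene; the submitters' processing notes name mm9, TopHat2 2.0.8 (an aligner), SAMtools, featureCounts 1.4.5-p1 (a read counter) and DESeq2, without roles, and the strand setting and the treatment of multiply mapped reads are not given in the sources used here. The same table held 6 columns of no single sample, in which the authors deposited their own DESeq2 comparisons, 3 of log2 fold changes and 3 of adjusted p-values; none was used. Levels in the text are RPKM as deposited. Between replicate libraries of a group, chi-square per gene ran from 1.02 (IACS replicates 1 and 2, near sampling noise alone) to 4.84 (OHT replicates 1 and 2). Each library counted as 1.

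For the tests, RPKM was scaled by median ratios, genes with at least 1 RPKM in at least 3 libraries were kept (9745 of 21671), and log2(RPKM + 0.1) was fitted over all 12 libraries with limma 3.58.1 (R 4.3.3; group means, mean-variance trend, two-sided, Benjamini-Hochberg within a comparison, threshold 0.05). Fold changes are on that log2 scale, which understates changes of low genes. Because RPKM steps are whole multiples of 1 read, reads and library totals were recovered for all 15451 genes above 0 and used for depth, voom and the covariate; 4199266 to 5762340 reads a library fell on genes, and intervals cover the spread between libraries. The fits were tested on simulated reads that grew in proportion to the library total, so the uneven growth seen here was not covered. RefSeq promoters and GENCODE vM21 loci are of GRCm38, not of the authors' build, and served for sequence and neighbours only.

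The 9 members were given by name. Beside them the text names, from the fixed lists, all called genes where 4 or fewer passed in a direction and otherwise the 4 with the smallest adjusted p, the 2 genes most correlated with each member, and Myc; for OHT_IACS against untreated the lists are given by counts. Members and lists were chosen with earlier results of these data known. A few genes that this rule names are not reported here.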

Additional observations from a re-analysis of the deposited data

Results flagged for a closer look

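Both subunits of ribonucleotide reductase were picked out because the OHT libraries and the OHT_IACS libraries lay on opposite sides of the means of their counterparts without OHT; the responses with IACS did not pass the test, so a reversal was not shown. For Rrm2, all 3 OHT libraries lay above the untreated mean and all 3 OHT_IACS libraries lay below the IACS mean. The OHT response was 0.15 without IACS (limma, adjusted p = 0.020) and -0.06 with it (interval -0.16 to 0.04, adjusted p = 0.36). The difference between the 2 responses was -0.21 on the log2 scale (-0.208 ± 0.063 SE, unadjusted p = 0.0056), and it did not pass after adjustment over all genes (limma, adjusted p = 0.21). The same difference had a median of -0.077 over the 867 genes of 0.4 to 0.7 reads per base, which include Rrm1 and Rrm2. Both genes were picked on these same values, so their unadjusted p-values and ranges here are a description and not separate support. For Rrm1 the libraries lay likewise, and the response was 0.14 without IACS (interval 0.01 to 0.26, adjusted p = 0.084) and -0.04 with it (interval -0.17 to 0.08, adjusted p = 0.63), with a difference of -0.18 (-0.179 ± 0.082, unadjusted p = 0.048, adjusted p = 0.39). The difference was below 0 for Rrm2 in each of the 12 alternative settings (-0.24 to -0.12) and with any library left out (-0.23 to -0.19). The OHT arm of the contrast includes the small libraries OHT replicates 1 and 3. Each was left out singly in the Rrm2 range above, and their joint part was not tested.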

How the results depend on the processing

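Of the 1341 values of single members recomputed under 13 alternative settings and with each library left out, 1245 kept their direction and their side of the threshold, 44 lost a call, 31 gained one and 21 changed sign. The causes of the changes were not tested. Fewer than the 13 settings were possible for the interaction, which the fit on only the compared groups cannot give.

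Counts of members called changed as follows. With OHT, the count called higher (2) was 3 on RPKM as deposited, 1 under quantile, cyclic loess, the library-total covariate and only the compared groups, and 5 with weights per library; the count called lower (0) was 1 under quantile and under cyclic loess. Over all 9745 genes, 1769 were higher in the main fit, 2059 as deposited, 1958 under quantile, 1786 under loess, 1195 with the covariate and 2947 with weights. All-gene counts lower were 1777 in the main fit, 1791 under quantile and 1886 under loess. With IACS the count lower (1) was 2 under quantile, where 966 of all genes were lower, against 754 in the main fit. In OHT_IACS against OHT the count lower (2) was 8 with weights per library and 4 with the covariate. Over all genes, 1146 were lower there in the main fit, 2210 with weights and 1457 with the covariate. In OHT_IACS against IACS the count lower (1) was 2 under quantile, cyclic loess and weights and 3 with the covariate. All-gene counts lower were 1388 in the main fit and 1534, 1509, 2060 and 1460 in these settings, in that order. In OHT_IACS against untreated the count higher (2) was 1 with no filter, quantile, cyclic loess, no trend and the covariate, and the count lower (5) was 4 on RPKM as deposited, with no filter and with no trend. All-gene counts higher were 1803 in the main fit and 1717 (of 15451 genes), 2192, 2117, 1761 and 1619 in those settings. All-gene counts lower were 2038 in the main fit and 1678, 1954 (of 15451) and 1972. For the interaction the count lower (0) was 2 with weights, where 533 of all genes were lower, against 0 in the main fit. With 1 library left out, the ranges were 1 to 4 (higher, OHT), 0 to 1 (lower, IACS), 1 to 7 (lower, OHT_IACS against OHT), 0 to 2 (higher) and 0 to 2 (lower) for OHT_IACS against IACS, and 1 to 2 (higher) and 3 to 5 (lower) for OHT_IACS against untreated. In that order, all-gene counts ran from 1251 to 2246, 429 to 878, 713 to 1494, 908 to 1350, 943 to 1512, 1390 to 2147 and 1630 to 2177.

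The changes of sign were of values near 0. With the library-total covariate, Dhodh with OHT was 0.009, Ctps with IACS -0.028, Rrm1 with IACS -0.018, and Rrm1 in OHT_IACS against untreated -0.102, the only one that passed (adjusted p = 0.032; also -0.032 under quantile and -0.042 under loess). With libraries left out in turn, Dctpp1 with OHT ranged from -0.163 to 0.036 (above 0 without untreated 1, 0.017, or OHT 2), Cad with IACS from -0.224 to 0.004 (above 0 without IACS 2), Cmpk1 with IACS from -0.120 to 0.011 (above 0 without untreated 1), and Cmpk1 in OHT_IACS against untreated from -0.079 to 0.052 (above 0 without untreated 1, untreated 2, 0.001, or OHT_IACS 1, 0.013, and on RPKM as deposited, 0.013). For the interaction, Dhodh ranged from -0.085 to 0.029 (above 0 without IACS 2 or OHT_IACS 3, 0.027) and Dctpp1 from -0.147 to 0.050 (above 0 without OHT 1), while Umps was 0.011 under quantile and Dctpp1 0.023 under quantile, 0.019 under loess and 0.026 with the covariate.

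Replicate numbers did not pair the libraries (correlations of same-numbered deviations -0.172 to 0.104). With the replicate number as a block the members' counts were 2 and 0 with OHT, 0 and 1 with IACS, and 0 and 2 in OHT_IACS against OHT, as without it; among the other named calls it ended those of Ctps2 (0.061) and Gpd2 (0.051) in OHT_IACS against OHT and of Prodh in OHT_IACS against untreated (0.061).

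With 3 libraries a group, the standard errors of the members, 0.045 to 0.102 on the log2 scale, limit what can be told from 0, and the uneven growth of reads with the total limits differences of about 0.1 that involve OHT.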
